A study of Homo sapiens with 4 samples.

Results

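The genes described here are 10 components of the contractile actin cytoskeleton that are commonly listed as targets of the serum response factor SRF: the actins ACTA2 and ACTG2, the calponin family members TAGLN, CNN1 and CNN2, the tropomyosins TPM1 and TPM2, the caldesmon CALD1, the myosin regulatory light chain MYL9 and the adhesion linker VCL. They were chosen by name, and every probe that the array annotates to one of them was taken, which gave 14 of the 34127 probes and 10 of the 19740 named genes. TPM1 had 3 probes, TAGLN and TPM2 had 2 each, and the other 7 genes had 1 probe each. Each of the 14 probes was spotted once per array.

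Expression was measured in Hs746T, an established human gastric carcinoma cell line that carries a mutated and amplified MET gene, so that all 4 conditions share this background. Cells were treated with the MET kinase inhibitor PHA665752 or with its vehicle DMSO, or were transfected with MET siRNA or with the negative control, sc siRNA, and harvested 48 h after transfection. The dose and duration of PHA665752 for the arrays were not given in the sources used here. Labelled RNA was hybridised to single-colour Agilent arrays lying on a single slide, with 1 array per condition, so the values below have no replicate error and no test could be made.

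SRF binds a short DNA element, the CArG box, and is steered by different partners. Cofactors of the myocardin family, MRTFA and MRTFB, are held in the cytoplasm by monomeric actin and move to the nucleus when actin is drawn into filaments, where they switch on genes of actin filaments, their binding proteins and their anchors. Ternary complex factors such as ELK1, ELK3 and ELK4 instead link SRF to the MAP kinase pathway and to immediate early genes. MET, the receptor of hepatocyte growth factor, is known for driving cell scattering and motility, which depend on the actin cytoskeleton.

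The CArG elements close to the start sites are shown first, because SRF binds this element. RefSeq (GRCh38.p14) gave 13 start sites for 8 of the members; for TAGLN and MYL9 no sequence is shown. The 250 bases before each start site were searched for the CArG box, which is a pair of C, 6 bases that are each A or T, and a pair of G, and which reads the same on both strands. A CArG box stood before 2 of the 13 start sites, those of ACTG2 and CNN2, against 1.16% of 35116 start sites in the genome. When 1 G or C was allowed among the middle 6 bases, 4 of the 13 start sites had a match, against 7.04% of all. The matches are printed 5′ to 3′ on the strand of the gene, with 15 bases on each side and the element in capitals. They lie at chr10:88952870-88952909 and chr10:88952820-88952859 on the minus strand for ACTA2 (121 and 71 bases before the start), at chr2:73892883-73892922 and chr2:73892920-73892959 on the plus strand for ACTG2 (110 and 73 bases), at chr19:1026504-1026543 on the plus strand for CNN2 (89 bases) and at chr7:134711458-134711497 on the plus strand for CALD1 (26 bases).
ACTA2 distal: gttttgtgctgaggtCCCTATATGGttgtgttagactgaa
ACTA2 proximal: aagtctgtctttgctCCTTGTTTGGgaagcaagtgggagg
ACTG2 distal: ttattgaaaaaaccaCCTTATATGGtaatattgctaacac
ACTG2 proximal: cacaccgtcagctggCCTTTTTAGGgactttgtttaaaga
CNN2: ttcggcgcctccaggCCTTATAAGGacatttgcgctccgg
CALD1: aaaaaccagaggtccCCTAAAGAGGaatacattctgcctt
Both ACTA2 elements and the CALD1 element carry 1 G or C in the middle and are CArG-like. Neither form was found in the window before the start sites of CNN1, TPM1, TPM2 and VCL, which says only that these letters are not there. A match is a string of letters in this window and does not show that SRF is bound there.

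The signals given below are the deposited processed signals, which are not scaled between arrays. The log2 ratios were taken after the 75th percentile of each array (990.1 for DMSO, 853.5 for PHA665752, 830.8 for sc siRNA and 858.2 for MET siRNA) had been set equal, so a ratio can differ from the quotient of the signals. A gene was called changed when its ratio was past 2-fold. The SD between repeated spots of a probe on these arrays, carried over to a log2 ratio, was 0.17 to 0.18 for the dimmest class of probes and 0.064 to 0.068 for the brightest. It covers the measurement of a spot only, and not differences between cultures.

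With PHA665752, most of the contractile genes with a ratio had a higher signal than with DMSO, and the tropomyosin TPM2 was the clearest case at 2.96-fold. Among the member probes, 3 of 12 with a ratio were higher past 2-fold and 0 were lower, where 12.8% of all probes were higher and 7.43% were lower. Counted as genes, each by its brightest probe, TPM2 and TAGLN, 2 of 9, were higher past 2-fold, against 13.1% of all genes, and 0 were lower, against 7.95%. The ratio was above 0 for 7 of the 9 genes, against 8146 of 14811 among all genes. The median log2 ratio was 0.55, against 0.08 for all genes. CNN1 and VCL were the members below 0. In bulk RNA, a change in RNA per cell and a change in the make-up of the culture cannot be told apart.

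After MET knockdown the members lay around 0. Among the member probes, 0 of 10 with a ratio passed 2-fold in either direction, where 2.12% of all probes were higher and 0.811% were lower. Over 8 genes with a ratio, 0 passed 2-fold, against 2.04% of all genes higher and 0.702% lower. Of the 8, 4 lay on each side of 0, where 6493 of 13810 among all genes lay above 0. The median log2 ratio of the members was -0.03, against -0.02 for all genes. TPM2 had the highest ratio of these genes and VCL the lowest. Whether the members differed between inhibition and knockdown could not be tested.

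The control arrays, sc siRNA over DMSO, show how far the arrays without MET suppression lay apart. They also differ in treatment, transfection with sc siRNA against the vehicle DMSO. A response to transfection and a difference between cultures therefore cannot be told apart in this pair. Here 0 of 12 member probes passed 2-fold, where 3.06% of all probes were higher and 1.13% were lower. Of 9 genes, 0 passed 2-fold, against 2.83% higher and 1.15% lower among all genes. The ratio was above 0 for 6 of the 9 genes, against 7184 of 14815 among all genes. The median log2 ratio was 0.03, against -0.01 for all genes. The member ratios ran from -0.35 for MYL9 to 0.39 for CALD1. This pair uses the DMSO and sc siRNA arrays that are also the denominators of the other comparisons, so its values are given beside theirs without a count of shared directions.

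**Figure D1:**
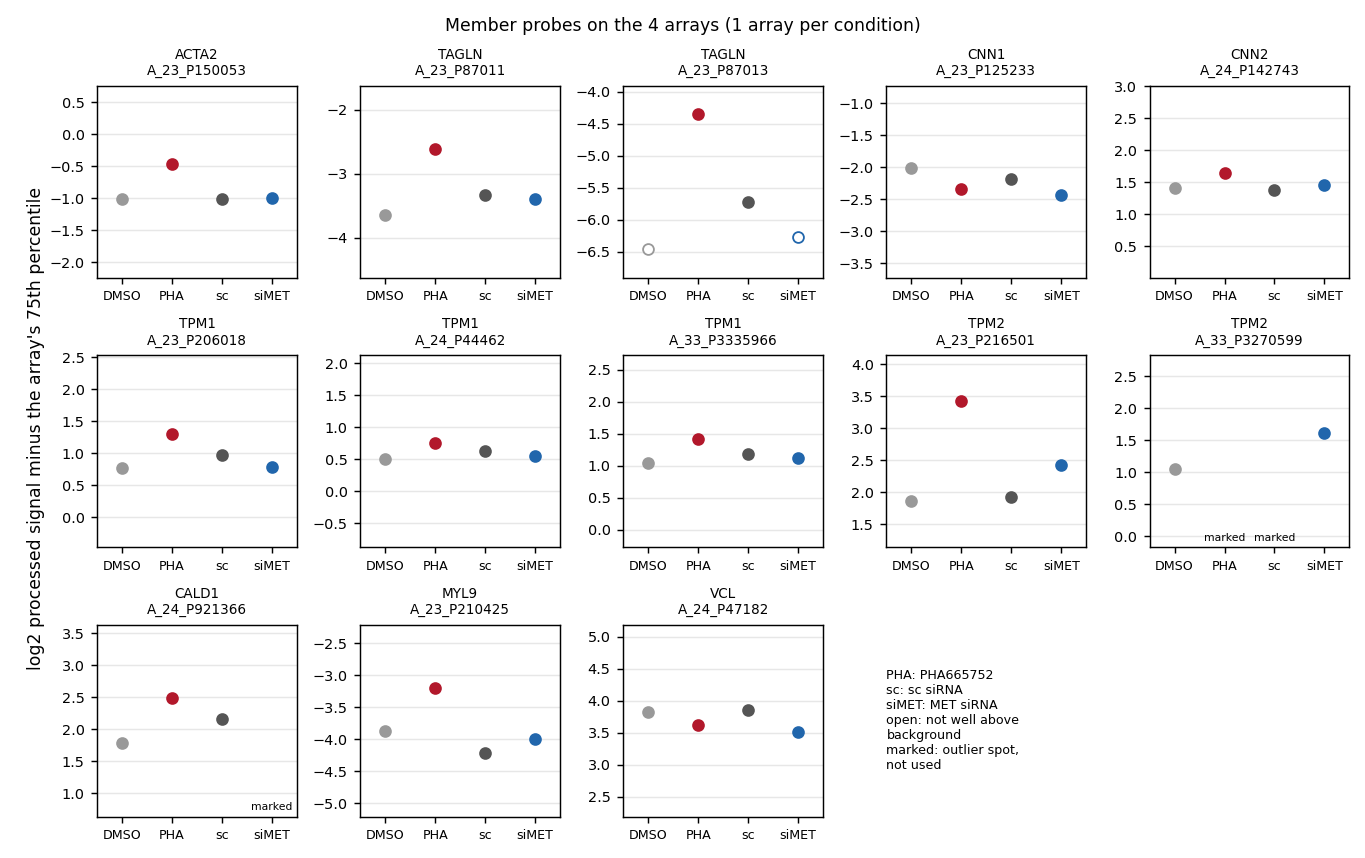
Normalized signal (vertical axis, log2 scale, relative to the 75th percentile of each array) of the 13 member probes other than that of ACTG2 on the arrays for DMSO, PHA665752 (PHA), sc siRNA (sc) and MET siRNA (siMET), with 1 point per array. Every panel spans the same number of log2 units; open points were not well above background, and "marked" stands for a spot left out as an outlier. PHA665752 is the highest point for TPM2, TAGLN, CALD1, MYL9, ACTA2, TPM1 and CNN2 among the arrays with a usable spot, apart from the TPM2 probe whose PHA665752 spot was left out, and not for CNN1 and VCL.

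Of the tropomyosins, rod-shaped proteins that lie along actin filaments and govern the access of myosin and other binding proteins, TPM2 stood apart. Its probe A_23_P216501 had a signal of 3589 in DMSO-treated cells, 9171 under PHA665752, 3163 in the sc siRNA control and 4613 after MET siRNA. The log2 ratio was 1.57 for the inhibitor and 0.50 (1.41-fold) for the knockdown, with 0.07 between the controls. Both forms of MET suppression thus lay above both controls, although only the inhibitor passed 2-fold. Among all genes, 94.4% had a lower ratio with PHA665752 and 92.8% with MET siRNA. A second TPM2 probe, A_33_P3270599, designed to the same transcript (NM_213674), had spots on the PHA665752 and sc siRNA arrays that the scanner software marked as background outliers, and so gave no ratio.

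TPM1, the companion tropomyosin gene, was measured by 3 probes designed to different transcripts, none of which passed 2-fold. The brightest probe, A_33_P3335966 (NM_001018005), had signals of 2039, 2279, 1897 and 1869 with DMSO, PHA665752, sc siRNA and MET siRNA, and log2 ratios of 0.37 for the inhibitor, -0.07 for the knockdown and 0.15 for the controls. The probe A_23_P206018 (NM_001018004) had signals of 1685, 2089, 1627 and 1470 in the same order, and log2 ratios of 0.52, -0.19 and 0.20. For A_24_P44462 (NM_000366) the signals were 1398, 1442, 1285 and 1253 and the log2 ratios were 0.26, -0.08 and 0.13. All 3 probes ranked the arrays alike, with PHA665752 highest, then sc siRNA, MET siRNA and DMSO. They are probes of the same RNA on the same arrays and are not replicates.

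TAGLN encodes transgelin, a small actin-bundling protein of the calponin family and a common SRF reporter. The brighter of its probes, A_23_P87011, had a signal of 79.6 in DMSO-treated cells, 140.0 under PHA665752, 83.0 in the sc siRNA control and 81.5 after MET siRNA. This gave a log2 ratio of 1.03 (2.04-fold) for the inhibitor, -0.07 for the knockdown and 0.31 for the controls. PHA665752 was the only array that stood apart, but the value lay at the 2-fold limit and fell short of it in 5 of 10 alternative settings, in which it ranged from 0.65 to 1.57. These 5 were all the changes of scaling or background correction. The upper end of 1.57 is the median with the dimmer probe, whose value is a bound. The dimmer probe, A_23_P87013, had signals of 11.2, 41.8, 15.6 and 11.1, and was not well above background with DMSO or MET siRNA. It was at least 4.34-fold higher with PHA665752 than with DMSO, a bound set on the probe's own dim signal with DMSO, and at least 1.67-fold higher with sc siRNA than with DMSO. With normexp background correction the first of these bounds dropped to 0.72 on the log2 scale, short of 2-fold. Both probes were designed to the same transcript (NM_001001522), and no bound was taken for MET siRNA over sc siRNA.

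The calponins CNN1 and CNN2 bind actin and inhibit the myosin ATPase, CNN1 mainly in smooth muscle and CNN2 in many cell types. CNN1 had signals of 244.4 in DMSO-treated cells, 167.8 under PHA665752, 182.6 in the sc siRNA control and 158.9 after MET siRNA. Its log2 ratios were -0.33 for the inhibitor, -0.25 for the knockdown and -0.17 for the controls, so that DMSO was the highest array and none of the differences reached 2-fold. CNN2, which has a CArG box before its start site, had signals of 2643, 2667, 2163 and 2360 in the same order. Its log2 ratios were 0.23, 0.08 and -0.04, the first of which turned to -0.02 when the arrays were scaled to the 50th percentile.

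Of the smooth muscle actins, ACTA2 was measured on every array and ACTG2 on none. ACTA2, the alpha actin of vascular smooth muscle and of myofibroblasts, had signals of 489.6 in DMSO-treated cells, 619.3 under PHA665752, 414.8 in the sc siRNA control and 433.1 after MET siRNA. After scaling, the log2 ratio was 0.55 (1.47-fold) with PHA665752, with a spot noise of 0.083, and about 0.01 both with MET siRNA and between the controls. PHA665752 was thus the array that stood apart, short of 2-fold. ACTG2, the gamma actin of enteric smooth muscle, which has a pair of CArG boxes, had signals of 2.5, 2.6, 2.1 and 3.7, below the lowest signal well above background on these arrays (10.2 to 17.4), and no ratio was formed. The actins are close in sequence, and the extent to which a probe of one also binds another was not tested.

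CALD1 encodes caldesmon, which binds actin, myosin and tropomyosin and restrains contraction. Its probe, A_24_P921366, had signals of 3405 with DMSO, 4796 with PHA665752 and 3740 with sc siRNA, while the MET siRNA spot was marked as a background outlier. The log2 ratio was 0.71 (1.63-fold) with PHA665752, and the controls themselves differed by 0.39, with 87.8% of genes below that value. MYL9, a regulatory light chain of non-muscle and smooth muscle myosin whose phosphorylation starts contraction, had signals of 67.6, 92.7, 44.6 and 53.7 with DMSO, PHA665752, sc siRNA and MET siRNA. Its log2 ratios were 0.67 for the inhibitor, 0.22 for the knockdown and -0.35 for the controls, each with a spot noise of 0.17 to 0.18. MYL9 was higher on each array with MET suppression than on its own control, by less than 2-fold, and the controls differed by more than the MET siRNA pair.

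VCL encodes vinculin, which links integrin adhesions and cadherin junctions to actin filaments. It had signals of 14084 in DMSO-treated cells, 10515 under PHA665752, 12084 in the sc siRNA control and 9790 after MET siRNA. The log2 ratio was -0.21 for the inhibitor, -0.35 (0.784-fold) for the knockdown and 0.03 for the controls. Both arrays with MET suppression lay below both controls, by less than 2-fold, and 9.8% of genes had a lower ratio with MET siRNA.

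**Figure D2:**
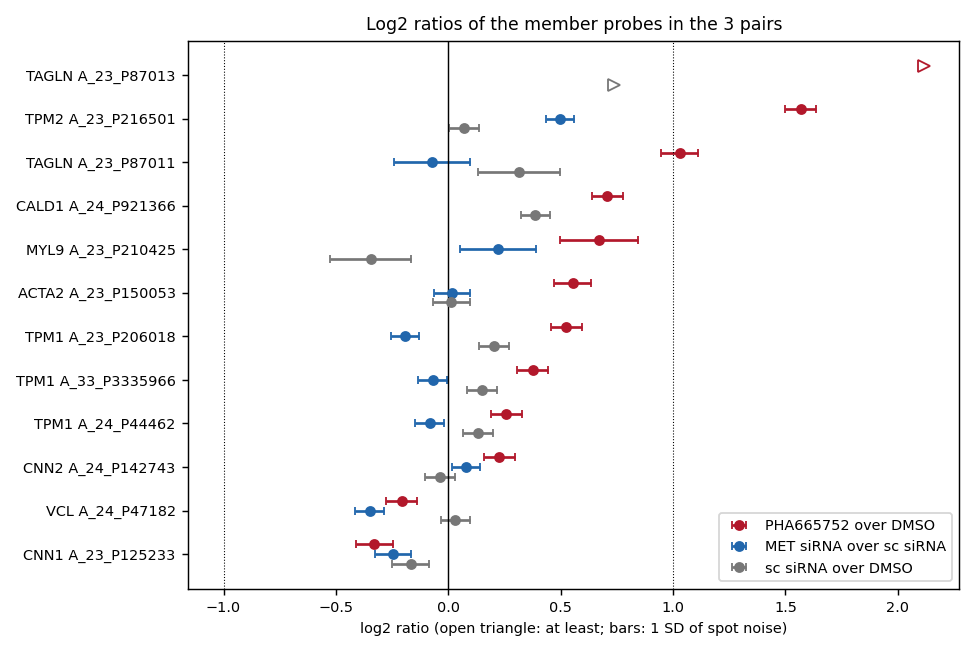
Log2 ratio (horizontal axis) of each member probe with a ratio, for PHA665752 over DMSO (red), MET siRNA over sc siRNA (blue) and sc siRNA over DMSO (grey), with bars of 1 SD of spot noise at the probe's signal level. Open triangles are lower bounds, and the dotted lines mark 2-fold. The red points run from -0.33 for CNN1 to 1.57 for TPM2, with the bound of 2.12 for TAGLN above them, while all blue points lie between -0.35 and 0.50.

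**Figure D3:**
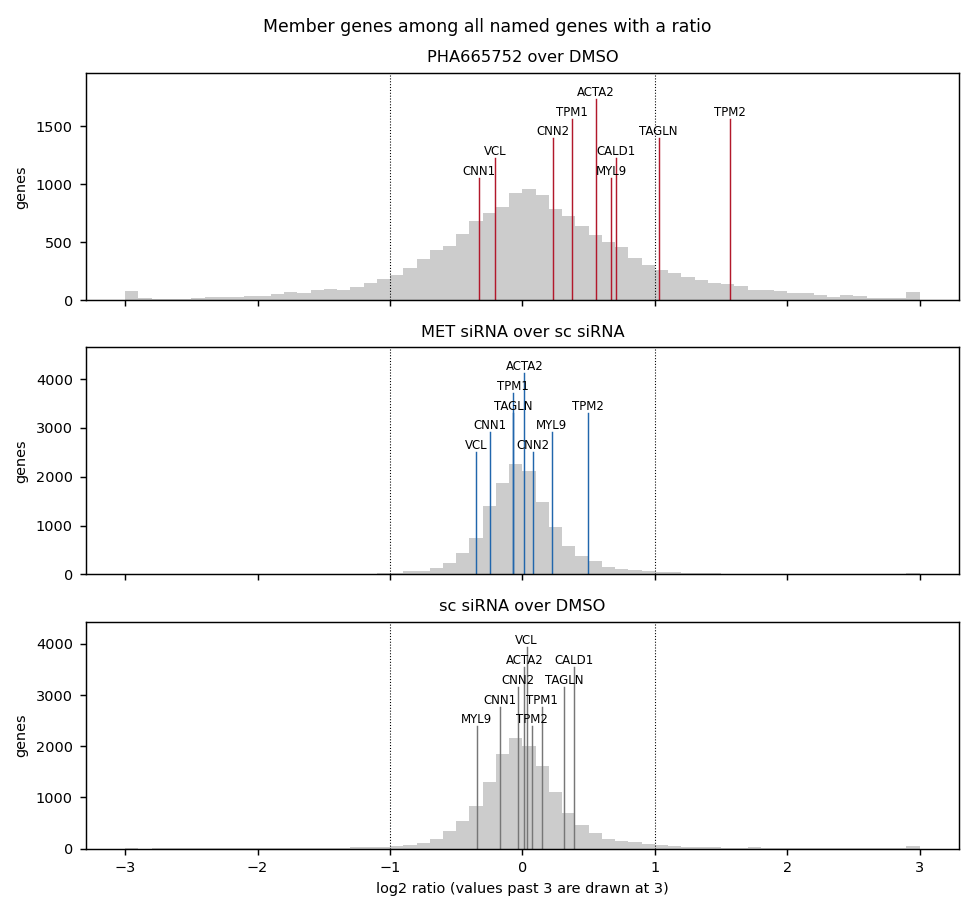
Distribution of log2 ratios (horizontal axis, values past 3 drawn at 3) over the 14811, 13810 and 14815 named genes with a ratio in the respective pair (vertical axis, number of genes), with the members marked by lines. With PHA665752 the distribution is broad and TPM2 and TAGLN lie past the dotted 2-fold line, whereas in the other pairs no member does.

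The regulators of SRF were called about as often as genes in general. Of 18 listed genes (SRF, its cofactors and regulators of actin filaments and contraction), 17 had a ratio with PHA665752, 2 were higher and 2 lower past 2-fold, where 13.1% of all genes were higher and 7.95% lower, and the median log2 ratio was -0.06. SRF itself had signals of 73.9, 70.9, 46.7 and 41.6 with DMSO, PHA665752, sc siRNA and MET siRNA, with log2 ratios of 0.15 for the inhibitor, -0.21 for the knockdown and -0.41 for the controls. MRTFA had log2 ratios of 0.17 for the inhibitor and 0.12 for the knockdown, and MRTFB of 0.59 and 0.28, all short of 2-fold. MYOCD, the founding member of the myocardin family, was not well above background on any array.

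The regulators past 2-fold with PHA665752 encode proteins with different known roles around contraction or SRF, and only their RNA was measured here. MYLK, the myosin light chain kinase that phosphorylates MYL9, had signals of 2809, 10005, 2268 and 3223 with DMSO, PHA665752, sc siRNA and MET siRNA, and rose 4.13-fold with PHA665752, against 1.38-fold with MET siRNA. RND3, a small GTPase whose product loosens actin stress fibres, had signals of 5464, 13752, 9580 and 8397 and rose 2.92-fold with PHA665752, but it was also 2.09-fold higher with sc siRNA than with DMSO, which fell short of 2-fold when the arrays were scaled to the 50th percentile. FHL2, a LIM protein that binds SRF, fell 4.67-fold, from 293.7 with DMSO to 54.2 with PHA665752, against 249.4 with sc siRNA and 219.9 with MET siRNA. ELK3, a ternary complex factor, fell 2.92-fold, from 1892 to 558.5, and had signals of 1559 with sc siRNA and 991.8 with MET siRNA (1.62-fold lower).

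The closest relatives of the members, namely the other actins, tropomyosins, calponins, myosins and adhesion proteins, mostly stayed within 2-fold. Of 29 listed genes, 28 had a ratio with PHA665752, and 0 were higher and 1 was lower past 2-fold. Among all genes, 13.1% were higher and 7.95% lower. The median log2 ratio of the relatives was 0.04, beside 0.55 for the members. The tropomyosins TPM3 (30104 with DMSO and 13430 with PHA665752) and TPM4 (14894 and 7322) were 1.93-fold and 1.75-fold lower, short of the limit. With the 50th percentile 3 relatives were lower past 2-fold, with the median of probes well above background 2, and with quantile normalization 1 was higher and 1 lower. With MET siRNA, 0 of 26 passed 2-fold, with a median of -0.05, where 2.04% of all genes were higher and 0.702% lower. ACTB, the main cytoplasmic actin, had signals of 324892, 259078, 287490 and 254413 with DMSO, PHA665752, sc siRNA and MET siRNA, and log2 ratios of -0.11 for the inhibitor and -0.22 for the knockdown. For ACTG1, its companion cytoplasmic actin, the log2 ratios were 0.33 and -0.18. The relative that fell was TAGLN3, a neuronal homologue of TAGLN, which had signals of 798.9, 123.7, 702.3 and 396.2 and was 5.57-fold lower with PHA665752 and 1.83-fold lower with MET siRNA.

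Markers of differentiated smooth muscle, in which the members are best known, did not share a direction. Of 8 such markers, 4 were well above background on all 4 arrays and 2 (PLN and SYNM) on none. SYNPO2, which encodes the actin-bundling protein synaptopodin 2, had signals of 38.6, 141.5, 73.6 and 113.0 with DMSO, PHA665752, sc siRNA and MET siRNA, and was 4.26-fold higher with PHA665752 and 2.28-fold higher with sc siRNA than with DMSO. SMTN, which encodes smoothelin, had signals of 3214, 347.8, 1363 and 1146 and was 7.97-fold lower with PHA665752 and 1.98-fold lower with sc siRNA than with DMSO. Of the 6 smooth muscle markers with a ratio, 4 were above 0 with PHA665752, against 8146 of 14811 among all genes. Past 2-fold, 1 was higher and 1 lower, where 13.1% of all genes were higher and 7.95% lower. The signals of the list added up to 4.2, 1.59, 2.55 and 2.30 times the 75th percentile in the same order, and to 0.953, 1.19, 0.904 and 0.962 times without SMTN.

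The cultures had markers of both epithelial and mesenchymal cells. Of the epithelial list, 6 of 7 were well above background on all 4 arrays. With PHA665752, 0 of 7 passed 2-fold, where 13.1% of all genes were higher and 7.95% lower. The dimmest of the list were CDH1 and ESRP1. CDH1 had signals of 33.0, 30.2, 13.1 and 10.4 with DMSO, PHA665752, sc siRNA and MET siRNA, and was not well above background with MET siRNA. ESRP1 had signals of 34.3, 25.7, 30.5 and 26.3. All 7 mesenchymal markers were well above background on all 4 arrays. With PHA665752, 4 of the 7 were higher past 2-fold and 0 lower, where 13.1% of all genes were higher and 7.95% lower. COL1A1, a fibrillar collagen, rose 9.97-fold and PDGFRB, a growth factor receptor, 4.32-fold. FN1, fibronectin, rose 3.89-fold and SPARC, a matrix protein, 2.52-fold. ZEB1 went the other way, 1.66-fold lower with PHA665752 and 1.44-fold lower with MET siRNA. CDH2 and VIM had log2 ratios of 0.26 and 0.14 with PHA665752. COL1A1 (2.92-fold) and PDGFRB (2.06-fold) also passed 2-fold with MET siRNA, where 2.04% of all genes were higher. Only 1 marker did when the arrays were scaled to the median of probes well above background. With marked spots kept, the summed signal of the mesenchymal list was 307, 351, 310 and 290 times the 75th percentile with DMSO, PHA665752, sc siRNA and MET siRNA. VIM, vimentin, carried nearly all of it, and the other 6 genes summed to 12.0, 26.7, 11.3 and 13.0 times. The epithelial list summed to 133, 94.9, 129 and 110 times, and to 41.1, 32.4, 39.7 and 35.4 times without CLDN4, its brightest gene. Of 4 leukocyte and endothelial markers, 3 were well above background on all 4 arrays and CD3E, which marks T cells, on none. PTPRC, the common leukocyte antigen, had signals of 37.8, 31.9, 22.7 and 28.7 with DMSO, PHA665752, sc siRNA and MET siRNA, and a log2 ratio of -0.03 for the inhibitor. CDH5, the endothelial cadherin, had signals of 88.5, 66.2, 65.5 and 63.5, and a log2 ratio of -0.20 for the inhibitor. PECAM1, an endothelial and leukocyte adhesion molecule, had signals of 1846, 304.2, 1039 and 790.5 and was 5.23-fold lower with PHA665752. These 4 genes summed to 2.01, 0.477, 1.36 and 1.03 times the 75th percentile in the same order, and to 0.141, 0.121, 0.114 and 0.112 times without PECAM1. The part of these markers in the values of the contractile genes was not tested.

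Among other outputs linked to SRF, most immediate early genes with a ratio were higher with PHA665752. Of 8 immediate early genes driven by SRF with ternary complex factors, 7 had a ratio and 5 rose past 2-fold, where 13.1% of all genes did. They were the zinc finger factor genes EGR1 (7.70-fold) and EGR2 (2.37-fold) and the AP-1 genes FOS (3.90-fold), FOSB (3.75-fold) and JUNB (2.24-fold). IER2 and MCL1 did not rise, with log2 ratios of -0.045 and -0.395. Among the genes that rose, the controls differed too, with FOS 2.52-fold and FOSB 3.16-fold lower and EGR2 2.57-fold higher with sc siRNA than with DMSO. With MET siRNA, 0 of 7 passed 2-fold, where 2.04% of all genes were higher and 0.702% lower, and the median log2 ratio was 0.08. Of 6 targets of YAP and TEAD, which respond to actin tension as well, THBS1 (2.09-fold) and CCN1 (2.06-fold) were higher past 2-fold with PHA665752. Among all genes, 13.1% were. With MET siRNA, 0 of 5 passed, against the shares of all genes given above. CCN2 went the other way, with signals of 293.7 with DMSO and 144.8 with PHA665752 and a log2 ratio of -0.81. These values lay near the limit, since 0 of the 6 were higher and 1 was lower past 2-fold when the arrays were scaled to the 50th percentile.

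**Figure D4:**
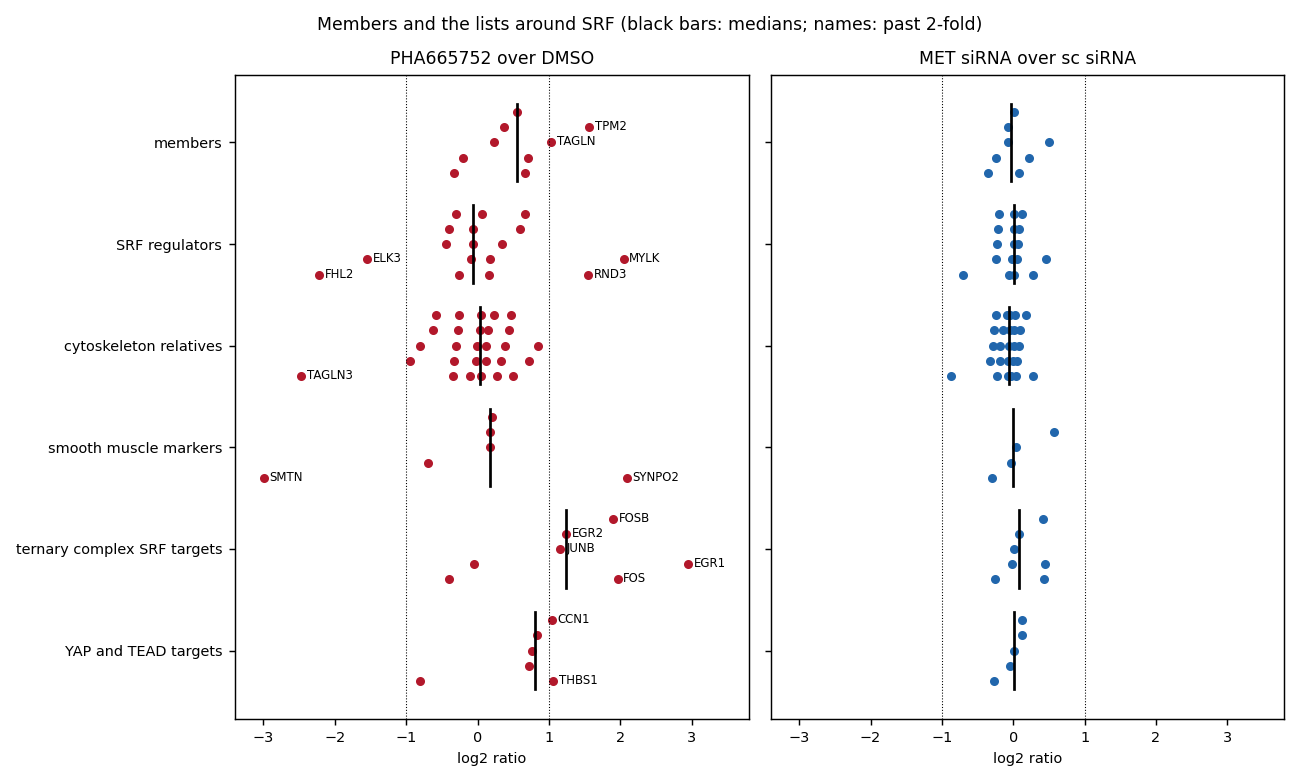
Log2 ratio (horizontal axis) of the members and of genes of the lists around SRF for PHA665752 over DMSO (left) and MET siRNA over sc siRNA (right), with 1 point per gene, spread vertically within a list for legibility only. Black bars are list medians and dotted lines mark 2-fold. On the left the median is 0.55 for the members, -0.06 for SRF regulators and 0.04 for the cytoskeleton relatives, and on the right no gene passes 2-fold.

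The genes whose pattern lay nearest to that of TPM2 were sought over the 3 log2 ratios among 13074 genes well above background on all 4 arrays. By Euclidean distance they were MID1 (0.042), LIAT1 (0.067), EBF1 (0.073), BCAS3 (0.083) and DLX4 (0.086). MID1 had log2 ratios of 1.60 for the inhibitor, 0.475 for the knockdown and 0.05 for the controls. None of the 5 belongs to the lists above, and such a likeness over 4 arrays says nothing of shared function.

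MET, the target of both treatments, had signals of 221451 in DMSO-treated cells, 100492 under PHA665752, 190010 in the sc siRNA control and 77853 after MET siRNA. It was 2.52-fold lower with MET siRNA than with sc siRNA, and 1.90-fold lower with PHA665752, an inhibitor of the protein, than with DMSO.

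**Figure D5:**
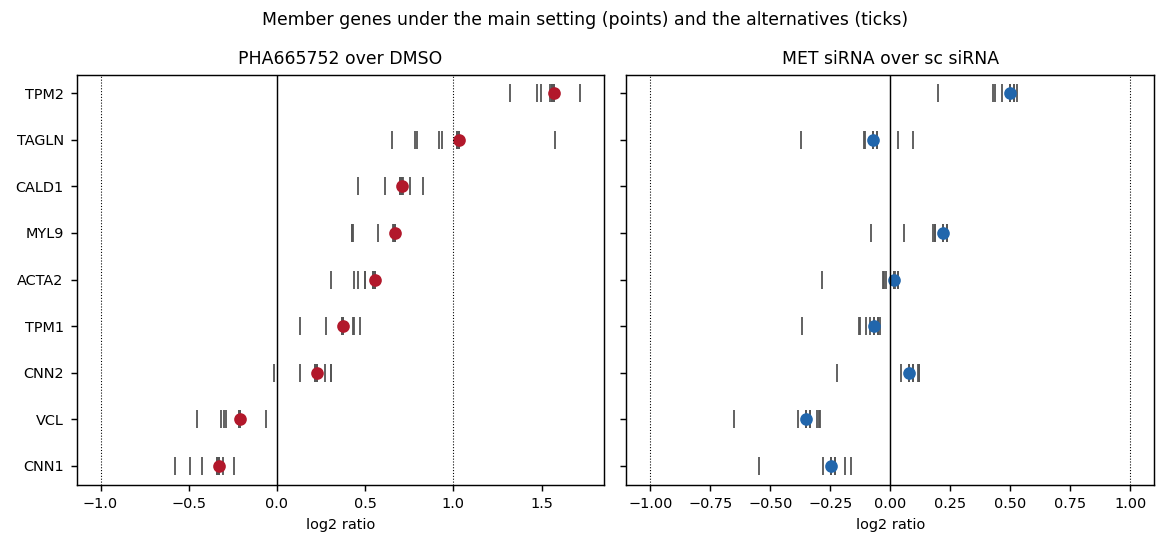
Log2 ratio (horizontal axis) of each member gene with the main processing (points) and with each alternative processing (ticks), for PHA665752 over DMSO (left) and MET siRNA over sc siRNA (right), with dotted lines at 2-fold. TPM2 ranges from 1.32 to 1.72 with PHA665752 and stays past 2-fold, TAGLN ranges from 0.65 to 1.57 across the line, and with MET siRNA no tick of any member reaches 2-fold.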

How the data were processed

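Total RNA of Hs746T cells was hybridised to Agilent human V2 expression arrays, and the files the authors deposited come from Feature Extraction (11.5.1.1 in the file headers). Their processed signal is, per the file headers, a linear intensity that the authors' software gave after background subtraction, not normalized between arrays. Groups were taken from the sample labels. Outlier-marked spots were dropped (1.69% to 5.58% of spots per array), and log2 signals were scaled to the 75th percentile of the array. Feature Extraction's own mark decided whether a probe was well above background, which held for 61.1% to 68.2% of probes, and 0 spots were saturated. Where only 1 array of the pair was above background a bound was given, namely the bright signal over the higher of the dim signal and the lowest signal well above background on the dim array, and where neither was, no ratio.

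Probes were named through RefSeq accessions (GRCh38.p14, names only), which named 75.5% of them. The probe with the highest mean signal, among those with a value on every array where there was one, stood for its gene. Members and gene lists were chosen with earlier results of these data known. Named in the text were all members, SRF, MRTFA, MRTFB, ACTB, ACTG1 and MET. Listed genes past 2-fold with PHA665752 or MET siRNA were named as well, the 4 largest per list where more than 4 passed. So were the 5 genes nearest to the member with the largest PHA665752 ratio. MYOCD, PLN, SYNM and CD3E were added as genes without signal. Added after their values were seen were JUNB, IER2, MCL1, TPM3, TPM4, CCN2, CDH1, ESRP1, ZEB1, CDH2, PTPRC, CDH5, CLDN4 and VIM. A further leukocyte marker is not reported here. With 1 array per condition no test was possible, so precision is limited by the number of arrays.

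The alternatives were the 50th percentile, quantile normalization, scaling to the median of probes well above background, normexp (offset 50, on the median spot signal, as the files hold no mean signal), plain background subtraction, a stricter or no filter on dim probes, marked spots kept, the series matrix values (equal to the processed signal within 0.05 for 33128 probes spotted once) and a gene's median probe in place of its brightest. The other gene lists were rescaled as an alternative chosen after seeing the data. The calculation of ratios and bounds was tested on simulated data. Python 3.11.15, numpy 2.4.6, pandas 2.3.3, matplotlib 3.10.9, R 4.3.3 and limma 3.58.1 were used.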

Additional observations from a re-analysis of the deposited data

Results flagged for a closer look

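The TPM1 probe A_23_P206018 had ratios of opposite sign with the 2 forms of MET suppression, namely a log2 ratio of 0.52 for the inhibitor and -0.19 for the knockdown, against a spot noise of 0.068 and 0.064. The ratios differed by 0.718 on the log2 scale, and this difference was not tested. The other TPM1 probes had the same signs with smaller values.

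Some member spots that were left out as background outliers held a signal well above background. With these spots kept, the second TPM2 probe, A_33_P3270599, had signals of 2047 in DMSO-treated cells, 5250 under PHA665752, 1802 in the sc siRNA control and 2613 after MET siRNA, and log2 ratios of 1.564 for the inhibitor and 0.505 for the knockdown, beside 1.568 and 0.497 for the first TPM2 probe. With its MET siRNA spot kept (a signal of 4350), the CALD1 probe A_24_P921366 had a log2 ratio of 0.187 with MET siRNA.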

How the results depend on the processing

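TPM2 stayed past 2-fold with PHA665752 in all 10 alternatives (1.32 to 1.72) and short of it with MET siRNA (0.20 to 0.53). Not all of these could change its value. Both settings of the filter on dim probes and the median probe left the PHA665752 ratio at 1.568. Marked spots kept and the series matrix values each gave 1.559. The whole range came from the changes of scaling and background correction. TAGLN fell short of 2-fold in 5 of 10, at 0.65 with normexp, 0.78 with the 50th percentile, 0.79 with quantile normalization, 0.92 with plain subtraction and 0.935 with the median of probes well above background. These 5 were all the changes of scaling or background correction. The 3 member probes past 2-fold with PHA665752 became 1 with normexp. The member-gene median with PHA665752, 0.55, was 0.31 with the 50th percentile, 0.435 with quantile normalization, 0.459 with the median of probes well above background and 0.433 with normexp. With the median of probes well above background, the MET siRNA median moved from -0.03 to -0.33, while all probes shifted by -0.29. With the 50th percentile, the control median moved from 0.032 to -0.067, and all PHA665752 ratios shifted by -0.245. Without a filter on dim probes the median of all PHA665752 ratios shifted by 0.146. Of the single-gene values, 35 of 90 moved beyond the spot noise with PHA665752, 12 of 80 with MET siRNA and 19 of 90 between the controls. The noise used here was that over all signal levels (0.080, 0.076 and 0.079 in the same order), not that at each probe's own signal. The totals include alternatives that leave a gene's value unchanged, so part of the stability was fixed in advance. No called value reversed, but only TPM2 and TAGLN with PHA665752 were called, so the other values could not count as reversed. Signs near 0 turned with MET siRNA for ACTA2 (in 4 alternatives), TAGLN (2), CNN2 and MYL9 (1 each), and between the controls for VCL (3), ACTA2 (2), TPM2 and MYL9 (1 each). With the 50th percentile, 3 immediate early genes rather than 5 were higher past 2-fold with PHA665752. With quantile normalization 2 rather than 1 of the smooth muscle markers were lower past 2-fold with PHA665752, and with the median of probes well above background 1 of the relatives was lower with MET siRNA. The cause of these shifts was not tested. No paired analysis was possible because each condition had 1 array, and for the same reason no array could be left out. Dim probes (MYL9, TAGLN) have the largest spot noise, and ACTG2 could not be measured at this signal.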
